A study of Mus musculus with 7 samples.

Results

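Fam13a and 7 further mouse genes, Cobll1, Grb14, Lyplal1, Tbx15, Klf14, Rspo3 and Plxnd1, were followed in the transcriptome of mature white adipocytes that lack the short-chain fatty acid receptor FFA2. The 8 genes were chosen because their human orthologs lie at or near loci that human genetic studies have linked to waist-hip ratio or to where body fat is stored. Each of the 8 had a row among the 57010 genes of the count table, and 7 of them passed the filter on low counts. The choice was made with earlier results of these data known, and the study itself had named Fam13a for its higher level in the control libraries analysed here. The genotype difference of Fam13a is therefore a description and no independent evidence. The question was whether any of the others moved with it.

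RNA was sequenced from adipocytes freed by collagenase from the perigonadal fat pads (epididymal white adipose tissue, eWAT) of male mice aged 20 weeks. The floxed controls were 3 FFA2 fl/fl mice, which carry both loxP-flanked alleles of Ffar2, the gene of FFA2, and no Cre. The 4 Adipoq-F2-KO mice were their littermates, with the same floxed alleles plus an Adiponectin-Cre transgene, in which the adiponectin promoter drives Cre recombinase in adipocytes. Both genotypes were co-housed from birth, which the study's methods end before the age of collection, ate the standard chow (SC) diet Teklad LM-485 and received no treatment. No control carried the Cre transgene without the floxed alleles, so the deletion and the transgene cannot be told apart. The labels count the mice separately, so each library was taken as 1 mouse.

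Fat distribution describes how triglyceride is divided between depots under the skin and inside the abdomen. It depends on how many adipocytes a depot forms from its progenitors, how much lipid each one stores in response to insulin, and how well the depot is supplied with vessels and matrix. Genes near the human loci include adaptors of insulin signaling, transcription factors of adipocytes and their progenitors, secreted modifiers of Wnt signaling and receptors that guide vessel growth. Most were linked to the trait by position in the genome, so the gene that acts at a locus is often not settled.

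Total counts were 30478997 to 39992605 per library. Ffar2 had 1404, 1346 and 1094 counts in FFA2 fl/fl libraries 1 to 3 and 67, 38, 48 and 76 in Adipoq-F2-KO libraries 1 to 4, which matches the labels. The adipocyte markers Adipoq and Fabp4 were abundant in each library, and the 15 adipocyte markers summed to 60487 to 66666 normalized CPM (counts scaled to the size of the library) in FFA2 fl/fl and 47141 to 60881 in Adipoq-F2-KO. Markers of other cells were present too. Macrophage markers summed to 273 to 339 CPM in FFA2 fl/fl and 439 to 521 in Adipoq-F2-KO, endothelial markers to 992 to 1328 and 1401 to 2226, fibroblast progenitor markers to 848 to 1128 and 1208 to 1445, and mural cell markers to 628 to 744 and 752 to 1325. Of the 6 mural cell markers 2 had a negative log2 fold change, as had 1 of the 8 fibroblast progenitor markers. Other sums overlapped between genotypes. Mesothelial markers summed to 10.7 to 26.2 CPM in FFA2 fl/fl and 7.58 to 10.99 in Adipoq-F2-KO. Lymphocyte markers summed to 1.35 to 16.3 and 2.18 to 10.9, and neutrophil markers to 2.55 to 3.66 and 2.46 to 5.01. Markers of epididymal epithelium summed to 0 to 2.80 and 0 to 17.5. Genes of the mitochondrial chromosome took 4.41% to 5.77% of counts in FFA2 fl/fl and 6.61% to 10.3% in Adipoq-F2-KO. In such bulk samples, fewer cells of a type and less RNA per cell cannot be told apart.

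Fam13a was lower in the Adipoq-F2-KO libraries and was the only member to pass the test. Grb14 had the next most negative difference and Plxnd1 a positive one, but neither passed. The differences of Cobll1, Lyplal1 and Klf14 were smaller than their standard errors or little larger, Rspo3 was near the detection limit, and Tbx15 was not detected beyond it. Of the 7 tested members, 1 was called lower and 0 higher by edgeR's quasi-likelihood test at a Benjamini-Hochberg adjusted p under 0.05. Over all 17039 tested genes, 0.217% were called lower and 0.798% higher, 173 genes in all (1.02%). The 1 member called is Fam13a, whose fall had already been named, so the count says nothing further about the members as a class. At an unadjusted p under 0.05, 2 members were lower (Fam13a and Grb14) and 1 was higher (Plxnd1), where 7.37% and 10.5% of all tested genes were. DESeq2 called 1 member, again Fam13a, and 3.05% of the genes it tested. The median log2 fold change was -0.14 over the 7 tested members and 0.00 over all tested genes.

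**Figure D1:**
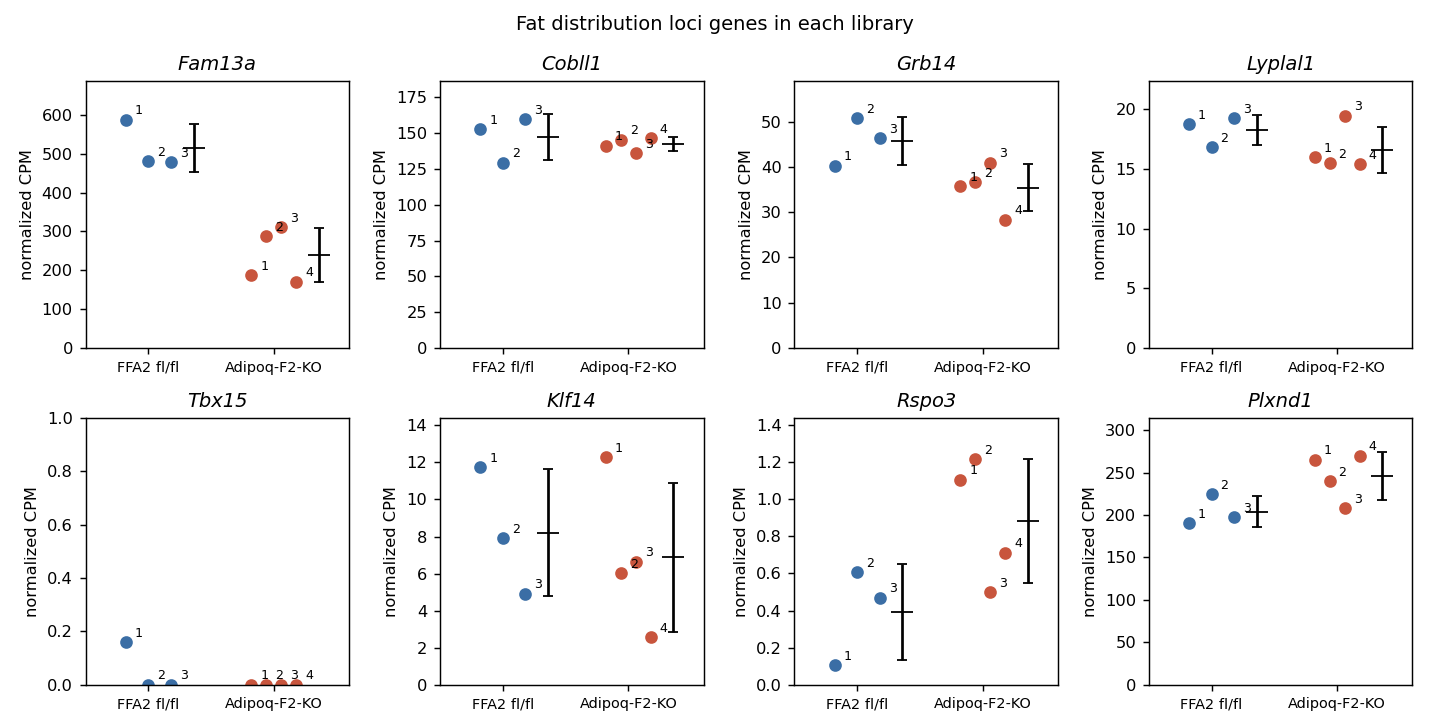
Each panel plots one gene in normalized CPM (linear axis from 0), with a numbered point per library of FFA2 fl/fl (n = 3) and Adipoq-F2-KO (n = 4) and a bar for the mean ± SD (none for Tbx15). Fam13a is the only panel without overlap between genotypes, with 478 CPM as the lowest FFA2 fl/fl library and 311 CPM as the highest Adipoq-F2-KO library.

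Fam13a (ENSMUSG00000037709) encodes a protein that is known in adipocytes for effects on insulin signaling and differentiation. In the deposited coordinates the gene spans chr6:58909075-59001534 on the minus strand. FFA2 fl/fl libraries 1 to 3 had 587, 480 and 478 CPM. Adipoq-F2-KO libraries 1 to 4 had 188, 288, 311 and 171 CPM. The genotypes did not overlap for Fam13a, which also held for 8.72% of all tested genes in the lower direction, and libraries 1 and 4 were the lowest of the knockouts. The mean fell from 515 ± 62.3 CPM (SD, n = 3) to 239 ± 70.1 CPM (SD, n = 4), or 0.465 of the control level.

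On the log2 scale Fam13a was at -1.11 (SE 0.19, 95% interval -1.53 to -0.68, adjusted p = 0.0379 by edgeR's quasi-likelihood test). Counted from the most negative change, Fam13a ranked 6 among the 8565 tested genes that averaged 10 CPM or more. The difference kept its sign without each library in turn, between -1.26 and -0.97. The call was lost without FFA2 fl/fl library 1 (adjusted p = 0.201, edgeR), library 2 (0.0609) or library 3 (0.134), and without Adipoq-F2-KO library 2 (0.0576). Scaling the libraries to the summed adipocyte markers in place of all genes put the median log2 fold change of all genes at 0.22. Fam13a was still called under this scaling, at -0.92 (edgeR adjusted p = 0.0279). The adipocyte markers themselves were mostly lower as well, and their part in the fall of Fam13a was not tested. Of these 15 markers 13 had a negative log2 fold change, with a range of -0.40 to 0.27 and a median of -0.28. edgeR called 0 of them. At an unadjusted p under 0.05, 6 were lower and 1 higher, beside 7.37% and 10.5% of all tested genes. Libraries did not overlap for 5 that were lower and 2 that were higher, beside 8.72% and 8.86% of all tested genes. DESeq2 called 3 lower, beside 3.05% of all genes it tested, in either direction.

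The Fam13a promoter is shown because this is the member that fell, and because the adipocyte transcription factors PPARG and C/EBP alpha bind short motifs that can be looked for in it. The sequence is RefSeq's for GRCm38.p6, chr6:59024453-59024752, minus strand, written 5′ to 3′ from 250 bases before the annotated start to 50 bases from it. These are GRCm38 coordinates, which differ from the numbering of the deposited table. Capitals mark AGGTCA on either strand, the core motif bound by many nuclear receptors.
Fam13a: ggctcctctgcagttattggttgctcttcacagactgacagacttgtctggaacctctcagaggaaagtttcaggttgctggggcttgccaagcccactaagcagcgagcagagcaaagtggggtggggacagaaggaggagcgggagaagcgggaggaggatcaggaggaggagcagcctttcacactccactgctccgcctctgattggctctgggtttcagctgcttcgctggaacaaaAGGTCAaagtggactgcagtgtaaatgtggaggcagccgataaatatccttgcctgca
The Fam13a promoter held AGGTCA once, on the gene's own strand, with its first base at position -8 from the start. Of all 32851 promoters of this length, 16.3% held AGGTCA on either strand. The full PPARG:RXR element, a direct repeat of AGGTCA with a single spacer base, was in 0.0396% of promoters and not in that of Fam13a, nor was the C/EBP core TTGCNNAA (10.8%) or the GC box GGGCGG (35.7%), both searched on either strand. The repeat contains AGGTCA, so each of its matches also counts for the shorter motif. Such matches describe the letters of this window alone. Pparg itself, the adipocyte nuclear receptor, had a log2 fold change of 0.27 (SE 0.09, adjusted p = 0.178 by edgeR), and Cebpa, which encodes C/EBP alpha, one of -0.31 (SE 0.18, adjusted p = 0.377).

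The neighbours of Fam13a did not fall with it. Herc3, an E3 ubiquitin ligase gene, ends 11.7 kb from Fam13a on the lower side and had 18.8 ± 0.83 CPM (SD, n = 3) in FFA2 fl/fl and 23.4 ± 2.10 CPM (SD, n = 4) in Adipoq-F2-KO. Herc3 libraries did not overlap between genotypes, which also held for 8.86% of all tested genes in the higher direction. The log2 fold change of Herc3 was 0.32 (SE 0.11, adjusted p = 0.178 by edgeR). Tigd2, a gene derived from a transposase, is the nearest tested gene on the other side, 184.3 kb away. It had 12.8, 12.7 and 12.9 CPM in FFA2 fl/fl and 17.96, 19.3, 18.3 and 18.2 CPM in Adipoq-F2-KO. All 4 knockout libraries lay above the controls, and Tigd2 was called higher, by 0.52 (SE 0.11, adjusted p = 0.0488 by edgeR). That call did not survive any of the 7 omissions of a library (edgeR adjusted p 0.0546 to 0.241), though the log2 fold change stayed between 0.51 and 0.54. With all libraries kept, the Tigd2 call was also lost under total counts, limma voom and the replicate block. An antisense gene, Gm45061, shares 78 exon bases with Fam13a and had 0 to 6 counts per library, against 5039 to 21979 for Fam13a.

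The paralogs Fam13b and Fam13c also did not fall. Fam13b had 20.1 ± 2.44 CPM (SD, n = 3) in FFA2 fl/fl and 24.1 ± 3.93 CPM (SD, n = 4) in Adipoq-F2-KO, and Fam13c had 6.68 ± 1.24 and 8.55 ± 1.15 CPM. Their log2 fold changes were 0.26 (SE 0.15, adjusted p = 0.383) and 0.36 (SE 0.18, adjusted p = 0.329) by edgeR's test. Both sets of libraries overlapped for each paralog, and neither was called by DESeq2.

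**Figure D2:**
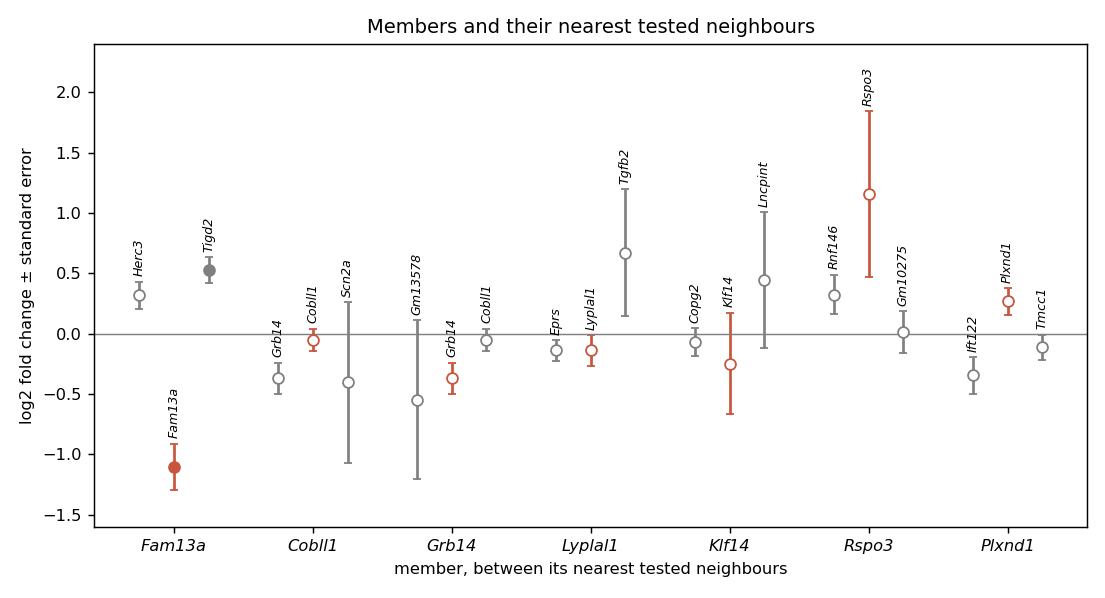
The vertical axis is the log2 fold change, Adipoq-F2-KO over FFA2 fl/fl, with bars of ± 1 standard error, for each tested member (red) between its nearest tested genes (grey), with filled points for genes called by edgeR. Fam13a at -1.11 lies below 0 while Herc3 at 0.32 and Tigd2 at 0.52 lie above it.

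Grb14 and Cobll1 are neighbours in mouse as in human, 63.4 kb apart on chromosome 2, and are usually named together for 1 human locus. Grb14 (ENSMUSG00000026888, chr2:64742820-64855331, minus strand) encodes an adaptor that binds the activated insulin receptor and inhibits it. Its level was 40.3, 50.7 and 46.3 CPM in FFA2 fl/fl and 35.7, 36.6, 40.9 and 28.4 CPM in Adipoq-F2-KO. The knockout libraries were the lower ones apart from library 3, which exceeded FFA2 fl/fl library 1. Grb14 thus differed by a log2 fold change of -0.37 (SE 0.13, 95% interval -0.66 to -0.08), which did not pass after adjustment (adjusted p = 0.178 by edgeR and 0.143 by DESeq2). Under scaling to the adipocyte markers, which put the median of all genes at 0.22, Grb14 was at -0.17 (edgeR adjusted p = 0.483).

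Cobll1 (ENSMUSG00000034903, chr2:64918683-65069747, minus strand) encodes a relative of the actin nucleator cordon-bleu. Its values were 153, 129 and 160 CPM in FFA2 fl/fl and 141, 145, 136 and 146 CPM in Adipoq-F2-KO. All 4 knockout libraries lay within the range of the controls. With a log2 fold change of -0.05 (SE 0.09, adjusted p = 0.819 by edgeR) and a 95% interval of -0.25 to 0.15, a difference of the size seen for Fam13a lies outside what Cobll1 allows. Cobll1 shares 80 exon bases with the antisense gene Gm13594, which had 17 to 54 counts per library against 4313 to 5719 for Cobll1. Cobl, the founding gene of that family, was low, with 1.19 ± 0.589 CPM (SD, n = 3) and 0.724 ± 0.289 CPM (SD, n = 4).

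Genes that act with Grb14 at the insulin receptor did not pass the test either. Of 8 tested genes of the GRB7 family and insulin receptor partners, 4 had a positive and 4 a negative log2 fold change. Their median was -0.05, and edgeR called 0. At an unadjusted p under 0.05, 1 was higher, beside 10.5% of all tested genes. DESeq2 called 1, beside 3.05% of all genes it tested, in either direction. That gene was Igf1r, the receptor of insulin-like growth factor, which is named here after its values were seen. Igf1r had 19.2 ± 1.98 CPM (SD, n = 3) in FFA2 fl/fl and 30.7 ± 9.47 CPM (SD, n = 4) in Adipoq-F2-KO, and its log2 fold change was 0.68 (edgeR adjusted p = 0.13). Irs2, the most abundant of them, had 558 ± 120 and 560 ± 84.6 CPM, a log2 fold change of 0.00 (SE 0.15). Insr, the insulin receptor, had 199 ± 11.5 and 182 ± 15.4 CPM, a log2 fold change of -0.13 (SE 0.09, adjusted p = 0.478 by edgeR).

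The Grb14 promoter is shown beside that of Fam13a as the other member with a lower level at an unadjusted p under 0.05. It is RefSeq's for GRCm38.p6, chr2:65022717-65023016, minus strand, 5′ to 3′, and the same capitals would mark AGGTCA.
Grb14: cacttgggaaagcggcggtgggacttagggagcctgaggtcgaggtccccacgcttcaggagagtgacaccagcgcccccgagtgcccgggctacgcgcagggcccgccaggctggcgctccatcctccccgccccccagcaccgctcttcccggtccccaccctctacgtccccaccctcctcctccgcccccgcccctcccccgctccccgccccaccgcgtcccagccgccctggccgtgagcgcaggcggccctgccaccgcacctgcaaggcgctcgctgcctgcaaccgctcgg
Grb14 held no AGGTCA in this window, and GGGCGG 5 times, each on the opposite strand. Its GC content was 75.3%, against 55% for Fam13a and a median of 52.7% over all promoters. Cobll1 was also at 75.3% and held none of the 4 motifs.

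Lyplal1 (ENSMUSG00000039246, chr1:185819928-185849507, minus strand) encodes a serine hydrolase related to the acyl-protein thioesterases. Its level was 18.7, 16.8 and 19.2 CPM in FFA2 fl/fl and 16.0, 15.5, 19.5 and 15.4 CPM in Adipoq-F2-KO. Of the knockout libraries, 3 lay below all controls and library 3 lay above all of them. Lyplal1 had a log2 fold change of -0.14 (SE 0.13, 95% interval -0.41 to 0.14, adjusted p = 0.598 by edgeR). The related Lypla1 and Lypla2 had log2 fold changes of -0.07 (SE 0.12, adjusted p = 0.794) and -0.22 (SE 0.09, adjusted p = 0.247) by edgeR's test. Lypla2 libraries did not overlap, at 40.4 ± 2.54 CPM (SD, n = 3) and 34.6 ± 1.65 CPM (SD, n = 4), but the gene was called by neither edgeR nor DESeq2. Such a lack of overlap held for 8.72% of all tested genes in the lower direction. The nearest tested genes, Eprs at 659.4 kb and Tgfb2 at 505.5 kb, were not called.

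The transcription factors among the members were weakly expressed. Klf14 (ENSMUSG00000073209, chr6:30932958-30936013, minus strand) is an imprinted zinc finger gene expressed from the maternal allele. FFA2 fl/fl libraries had 11.7, 7.91 and 4.92 CPM and Adipoq-F2-KO libraries 12.3, 6.01, 6.64 and 2.58 CPM. The values spread from 2.58 to 12.3 CPM over the knockouts alone, and this range took in all of the controls. Klf14 therefore had a log2 fold change with a wide error, -0.25 (SE 0.42, 95% interval -1.17 to 0.67, adjusted p = 0.801 by edgeR), and the interval takes in both 0 and a change the size of that in Fam13a.

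Among the 5 KLF genes nearest Klf14 in the family, 1 was called higher by edgeR, where 0.798% of all tested genes were. DESeq2 also called 1, beside 3.05% of all genes it tested, in either direction. At an unadjusted p under 0.05, 2 were higher, beside 10.5% of all tested genes. Klf10, a factor induced early by TGF-beta, had 21.3, 34.45 and 29.4 CPM in FFA2 fl/fl and 48.3, 54.6, 47.3 and 62.4 CPM in Adipoq-F2-KO. All knockout libraries were above all controls, by 0.90 on the log2 scale (SE 0.16, adjusted p = 0.0383 by edgeR). The call was lost without FFA2 fl/fl library 1 or 3 and without Adipoq-F2-KO library 2 or 3, with edgeR adjusted p 0.0546 to 0.196 and log2 fold changes of 0.73 to 0.96. All 5 had a positive log2 fold change, with a median of 0.21. Klf9, the most abundant, had 165 ± 26.9 CPM (SD, n = 3) and 190 ± 24.6 CPM (SD, n = 4) and was not called (adjusted p = 0.432, edgeR).

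Tbx15 (ENSMUSG00000027868, chr3:99147697-99261575, plus strand), a T-box factor of skeletal and adipose progenitors, had 6 counts in FFA2 fl/fl library 1 and 0 in the other libraries. Most low counts were even, and if both mates of a read pair were counted, the 6 counts are no more than the limit that a count of 0 allows (3 read pairs, 0.150 to 0.197 CPM over the libraries). Tbx15 was therefore not detectable beyond this limit in either genotype. It did not enter the fit, and with counts in 1 library alone no test of it could reach the threshold, so none is given. Wars2, which ends 1.2 kb from Tbx15 and encodes the mitochondrial tryptophanyl-tRNA synthetase, is often named for the same human locus. It was detected at 6.56 ± 0.817 CPM (SD, n = 3) and 6.02 ± 1.84 CPM (SD, n = 4), and its log2 fold change was -0.13 (SE 0.25, adjusted p = 0.838 by edgeR). Of 8 other T-box genes, 3 were tested and 0 called by edgeR (0 at an unadjusted p under 0.05, and 0 by DESeq2), and 3 had 0 counts in all 7 libraries. The most abundant was Tbx3, at 19.5 ± 3.80 CPM and 22.9 ± 3.24 CPM, with adjusted p = 0.47 by edgeR, followed by Tbx2 (adjusted p = 0.781).

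Rspo3 (ENSMUSG00000019880, chr10:29328412-29411863, minus strand) encodes a secreted R-spondin, which raises Wnt signaling by keeping Wnt receptors at the cell surface. It had 4, 24 and 16 counts in FFA2 fl/fl and 44, 40, 18 and 21 counts in Adipoq-F2-KO. As normalized values these were 0.107, 0.605 and 0.469 CPM against 1.10, 1.22, 0.498 and 0.710 CPM. Knockout libraries 1, 2 and 4 exceeded all controls and library 3 did not. Its log2 fold change was the most positive of the members at 1.16, but with an SE of 0.69 and a 95% interval of -0.35 to 2.66 (adjusted p = 0.404 by edgeR). With 1 library left out at a time it ran from 0.71 to 1.61 (edgeR adjusted p 0.328 to 0.731). At so few counts a difference of this size could not be told from 0. Of 11 genes of R-spondin signaling and Wnt receptor turnover, 6 were tested and 0 called by edgeR (0 at an unadjusted p under 0.05, and 0 by DESeq2). Their log2 fold changes ran from -0.14 to 0.14. The Wnt co-receptor genes Lrp5 (185 ± 12.8 and 173 ± 17.9 CPM) and Lrp6 (156 ± 8.89 and 141 ± 11.4 CPM) were the most abundant.

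Plxnd1 (ENSMUSG00000030123, chr6:115931772-115971966, minus strand) encodes plexin D1, a semaphorin receptor known for guiding vessel growth and expressed strongly by endothelial cells. Its level was 190, 224 and 197 CPM in FFA2 fl/fl and 265, 240, 208 and 270 CPM in Adipoq-F2-KO. Knockout libraries 1, 2 and 4 were above all controls, and library 3 lay among them. Plxnd1 differed by a log2 fold change of 0.27 (SE 0.11, 95% interval 0.03 to 0.51), which did not pass after adjustment (adjusted p = 0.236 by edgeR and 0.165 by DESeq2). Under scaling to the adipocyte markers, which put the median of all genes at 0.22, Plxnd1 was at 0.50 (edgeR adjusted p = 0.112).

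The 9 endothelial markers moved in the same direction as Plxnd1. Each had a positive log2 fold change, from 0.41 to 0.63 with a median of 0.48, although edgeR called 0 of them. At an unadjusted p under 0.05, 7 were higher (10.5% of all tested genes), and DESeq2 called 4 (3.05% of all genes it tested, in either direction). Their summed level was 992, 1328 and 1134 CPM in FFA2 fl/fl and 1568, 1401, 1406 and 2226 CPM in Adipoq-F2-KO. All knockout libraries exceeded all controls in this sum, and library 4 was highest both for this sum and for Plxnd1. In that library Fam13a and the summed adipocyte markers were at their lowest. Over Adipoq-F2-KO libraries 1 to 4 the adipocyte markers summed to 56624, 56926, 60881 and 47141 CPM. Fam13a had 188, 288, 311 and 171 CPM there. The part of the endothelial RNA in the Plxnd1 values, and of the cell mixture in those of Fam13a, was not tested.

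Of 18 semaphorins, plexins and neuropilins, 16 were tested. Their median log2 fold change was 0.25, with 12 positive and 4 negative, and edgeR called 0. At an unadjusted p under 0.05, 2 were higher, beside 10.5% of all tested genes. DESeq2 called 1, Nrp2, beside 3.05% of all genes it tested, in either direction. Nrp2 is named here after its values were seen. It had 62.2 ± 9.58 CPM (SD, n = 3) in FFA2 fl/fl and 95.02 ± 18.9 CPM (SD, n = 4) in Adipoq-F2-KO (edgeR log2 fold change 0.61, adjusted p = 0.0809). Nrp1, the most abundant of the co-receptors, had 236 ± 18.1 CPM and 254 ± 37.6 CPM, which is 0.10 on the log2 scale (SE 0.12). Plxna2 had 121 ± 14.2 and 137 ± 30.3 CPM, or 0.18 on the log2 scale (SE 0.15). The genes beside Plxnd1 lay on the other side of 0. Ift122 had a log2 fold change of -0.35 (SE 0.15, adjusted p = 0.264) and Tmcc1 one of -0.11 (SE 0.11, adjusted p = 0.617), both by edgeR's test. The nearest tested genes of the other members, Scn2a, Gm13578, Copg2, Lncpint, Rnf146, Gm10275 and M6pr-ps, were not called by edgeR either.

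The Plxnd1 promoter is shown as that of the member with a higher level at an unadjusted p under 0.05. It is RefSeq's for GRCm38.p6, chr6:115994956-115995255, minus strand, 5′ to 3′, with TGACCT in capitals, which is AGGTCA on the opposite strand.
Plxnd1: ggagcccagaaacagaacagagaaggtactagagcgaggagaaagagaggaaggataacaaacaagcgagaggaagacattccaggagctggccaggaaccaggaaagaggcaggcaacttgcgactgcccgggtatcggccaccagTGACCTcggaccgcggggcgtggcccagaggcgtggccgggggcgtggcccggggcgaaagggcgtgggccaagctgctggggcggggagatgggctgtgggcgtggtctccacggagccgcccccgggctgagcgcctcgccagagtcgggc
AGGTCA was thus present in Plxnd1, at position -103, as well as in Fam13a. Lyplal1 also held AGGTCA, at position -115 on the opposite strand. The motif was therefore in 3 of the 5 member promoters found, beside 16.3% of all promoters. With 5 promoters these shares were not compared, and a bearing of the motif on the levels was not tested.

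**Figure D3:**
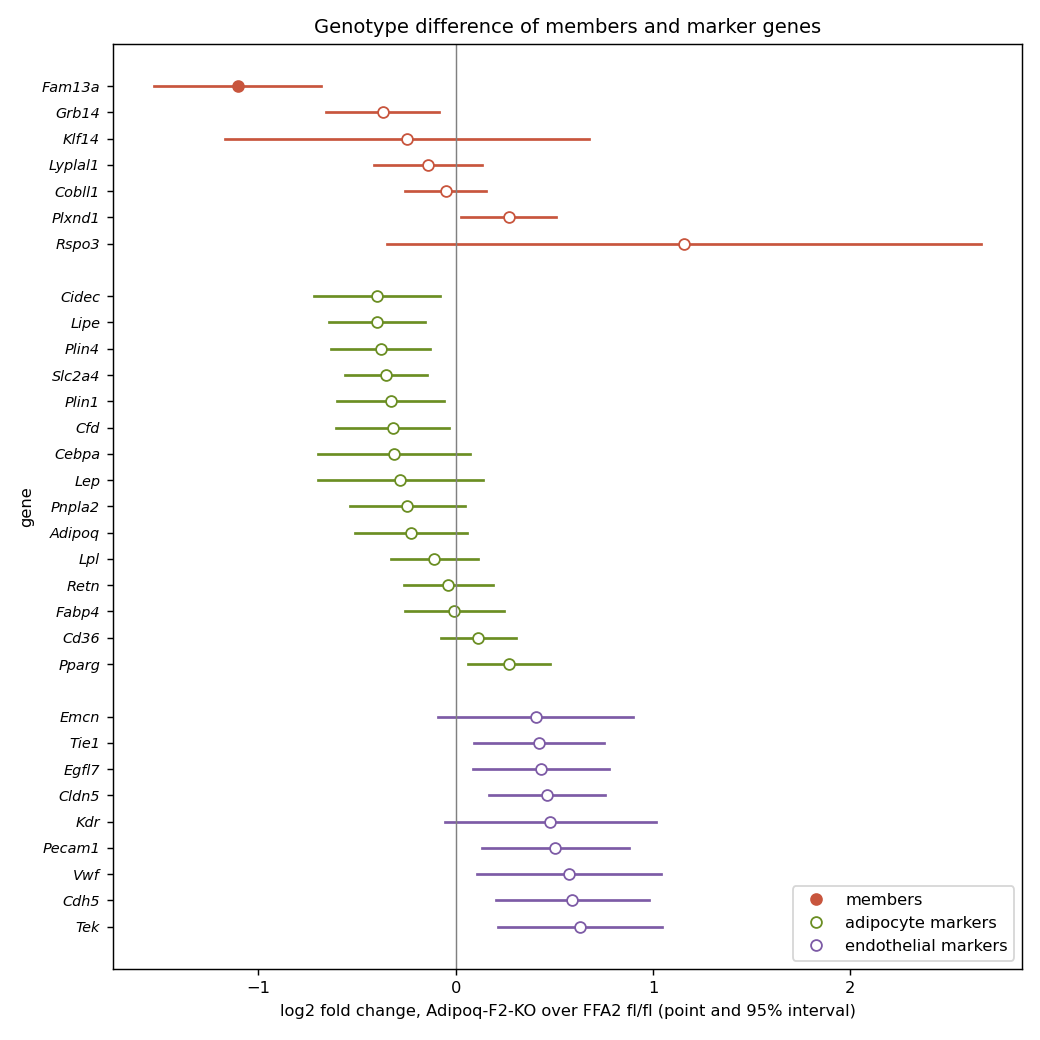
Points are log2 fold changes of Adipoq-F2-KO over FFA2 fl/fl with 95% intervals, for the 7 tested members, 15 adipocyte markers and 9 endothelial markers, and filled points were called by edgeR. Fam13a at -1.11 lies below the whole range of the adipocyte markers (-0.40 to 0.27), and Plxnd1 at 0.27 lies between 0 and the endothelial markers (0.41 to 0.63).

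Ordered by level per exon length (RPKM, from normalized CPM), the members in FFA2 fl/fl libraries were Fam13a at 49.03 ± 5.93, Plxnd1 at 27.9 ± 2.48, Cobll1 at 17.6 ± 1.90, Lyplal1 at 11.6 ± 0.806, Grb14 at 6.37 ± 0.731, Klf14 at 2.68 ± 1.12, Rspo3 at 0.127 ± 0.0833 and Tbx15 at 0.0143 ± 0.0247 (SD, n = 3). The part of cells other than adipocytes in these levels was not tested. Neighbours in this order did not overlap between libraries, except Rspo3 and Tbx15. In Adipoq-F2-KO libraries the level of Plxnd1 was 33.6 ± 3.88 RPKM and that of Fam13a 22.8 ± 6.67 RPKM (SD, n = 4). Fam13a thus went from first to second place, and its libraries there overlapped with those of Plxnd1 above and of Cobll1 below. The order of the other members stayed as in the controls, though libraries of Grb14 and Klf14 now overlapped. The 8 members together summed to 905 to 1001 CPM in FFA2 fl/fl and 634 to 732 CPM in Adipoq-F2-KO. That gap is the fall of Fam13a, since the other 7 together had 424 ± 8.60 CPM (SD, n = 3) in FFA2 fl/fl and 447 ± 26.6 CPM (SD, n = 4) in Adipoq-F2-KO, with overlap.

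To ask which genes varied with Fam13a beyond the genotype difference, each library's log2 CPM was taken as a deviation from its genotype mean, and the deviations were correlated over the 7 libraries. Fam13a deviated by 0.20, -0.09 and -0.10 in FFA2 fl/fl and by -0.30, 0.31, 0.42 and -0.44 in Adipoq-F2-KO, so the knockouts carried most of its spread. The correlation was 0.57 for Lyplal1, 0.53 for Grb14, 0.32 for Klf14, -0.09 for Cobll1, -0.36 for Rspo3 and -0.85 for Plxnd1. Across the other 8564 genes that averaged 10 CPM or more, the central 95% of correlations ran from -0.82 to 0.82. Of the members, Plxnd1 alone lay outside this range, and in the inverse direction. Klf14 and Rspo3 averaged 7.44 and 0.673 CPM, below that cut, so the range does not describe genes at their level. All these values come from the same 7 libraries, which share depth and cell mixture, so they are descriptions without a p.

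The 5 genes whose deviations were most like those of Fam13a were Lin52, Rnf138 and Ppp3r1, whose correlations each rounded to 0.98, and Slc43a1 and Pcsk6, at 0.97. They were higher in Adipoq-F2-KO libraries 2 and 3 and lower in libraries 1 and 4. As estimates, their own genotype differences were all smaller than that of Fam13a. Lin52, a subunit of the DREAM cell cycle complex, had a log2 fold change of 0.02 (SE 0.17, adjusted p = 0.971 by edgeR). Slc43a1, a transporter of neutral amino acids, came nearest, with 52.3 ± 4.92 CPM (SD, n = 3) and 31.4 ± 9.72 CPM (SD, n = 4), and a log2 fold change of -0.73 (SE 0.20, adjusted p = 0.104 by edgeR). Ppp3r1, the regulatory subunit of calcineurin, had -0.09 (SE 0.11), the proprotein convertase Pcsk6 had -0.22 (SE 0.09), and the ubiquitin ligase Rnf138 had 0.21 (SE 0.16). edgeR called none of the 5, while DESeq2 called Slc43a1 lower (adjusted p = 0.0136). Slc43a1 libraries did not overlap between genotypes, which also held for 8.72% of all tested genes in the lower direction.

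**Figure D4:**
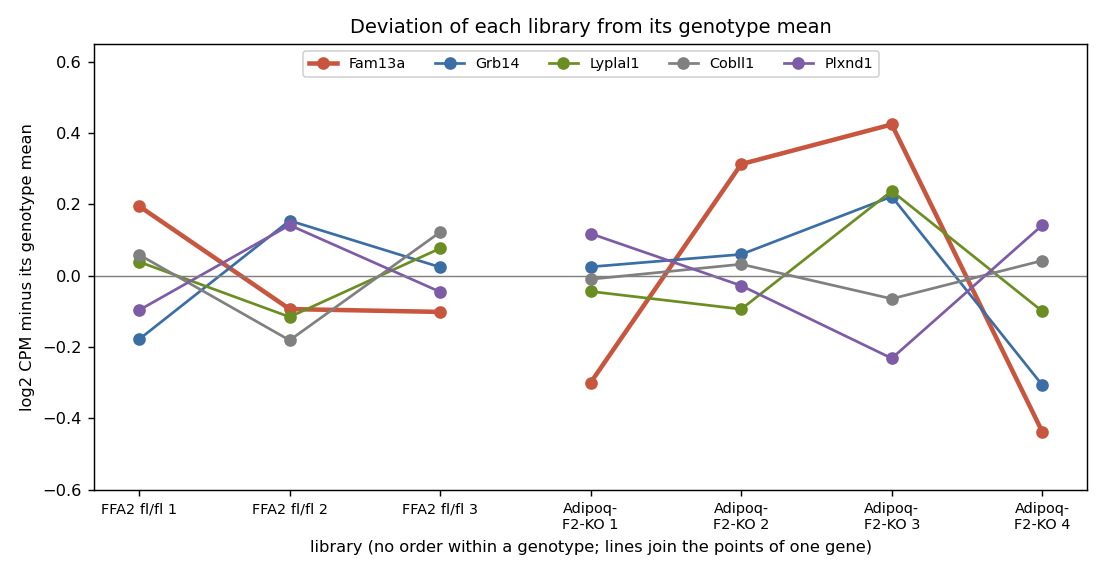
The vertical axis is log2 CPM minus the mean of the genotype, for 5 members in each of the 7 libraries, and lines only join the points of a gene. In Adipoq-F2-KO library 3 Fam13a is at 0.42 and Plxnd1 at -0.23, and in library 4 they are at -0.44 and 0.14.

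A wider list of 51 genes named at human fat distribution loci, in which none of the members was included, was described in the same fit. Of these, 45 were tested, and 24 had a positive and 21 a negative log2 fold change, with a median of 0.06 beside 0.00 for all tested genes. edgeR called 2 higher and 0 lower, beside 0.798% and 0.217% of all tested genes. At an unadjusted p under 0.05, 6 were higher and 1 lower, beside 10.5% and 7.37% of all tested genes. DESeq2 called 3 higher and 1 lower, beside 3.05% of all genes it tested, in either direction. Counts this small were not compared further. Genotypes did not overlap for 4 genes that were higher and 3 that were lower, where 8.86% and 8.72% of all tested genes did so.

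Both called genes were higher in the knockouts, opposite to Fam13a. Adamts9 encodes a secreted metalloprotease that cleaves proteoglycans of the matrix. It had 48.0, 62.9 and 52.5 CPM in FFA2 fl/fl and 105, 97.4, 101 and 169 CPM in Adipoq-F2-KO, all above the controls. For Adamts9 the log2 fold change was 1.12 (SE 0.19, adjusted p = 0.0332 by edgeR). Hmga1 encodes a chromatin protein that binds AT-rich DNA and is known for a role in insulin receptor expression. Its libraries had 26.4, 35.96 and 34.97 CPM in FFA2 fl/fl and 56.6, 58.4, 73.1 and 49.01 CPM in Adipoq-F2-KO, again without overlap. For Hmga1 it was 0.87 (SE 0.15, adjusted p = 0.0379 by edgeR). Both calls were lost without FFA2 fl/fl library 1, 2 or 3 and without Adipoq-F2-KO library 2 or 3, where edgeR adjusted p was 0.0546 to 0.201, while over all 7 omissions Adamts9 stayed at 0.89 to 1.23 and Hmga1 at 0.74 to 0.95.

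Macrod1, a mono-ADP-ribose hydrolase gene and the 1 member of the wider list that was lower at an unadjusted p under 0.05, was singled out after its values were seen. It had 30.1 ± 4.59 CPM (SD, n = 3) in FFA2 fl/fl and 20.0 ± 4.15 CPM (SD, n = 4) in Adipoq-F2-KO, and a log2 fold change of -0.59 (SE 0.17, adjusted p = 0.11 by edgeR). DESeq2 called Macrod1 lower (adjusted p = 0.0385). Macrod1 libraries did not overlap between genotypes, as for 8.72% of all tested genes in the lower direction. The most abundant genes of the list were Cebpa, at 980 ± 76.6 and 789 ± 198 CPM, and the cholesterol exporter Abca1, at 557 ± 29.9 and 521 ± 57.5 CPM (log2 fold change -0.10, SE 0.10). Stab1, a scavenger receptor of macrophages and endothelium that DESeq2 called, had 65.9 ± 3.95 and 92.5 ± 18.1 CPM (edgeR log2 fold change 0.49, adjusted p = 0.107). All 10 macrophage markers also had a positive log2 fold change, with a median of 0.65. edgeR called 2 of them higher, Lyz2 (0.69, SE 0.12, adjusted p = 0.0383) and Cd68 (0.72, SE 0.14, adjusted p = 0.0416), where 0.798% of all tested genes were. At an unadjusted p under 0.05, 9 were higher (10.5% of all tested genes), and DESeq2 called 6 (3.05% of all genes it tested, in either direction). With 1 library left out at a time, Lyz2 stayed called in 3 of 7 fits, being lost without FFA2 fl/fl library 1 or 3 or Adipoq-F2-KO library 2 or 3. Cd68 stayed called in 1 of 7, the fit without FFA2 fl/fl library 2. The edgeR adjusted p ran from 0.0375 to 0.201 for Lyz2 and from 0.0414 to 0.227 for Cd68. The part of macrophage RNA in the Stab1, Adamts9 or Hmga1 values was not tested.

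**Figure D5:**
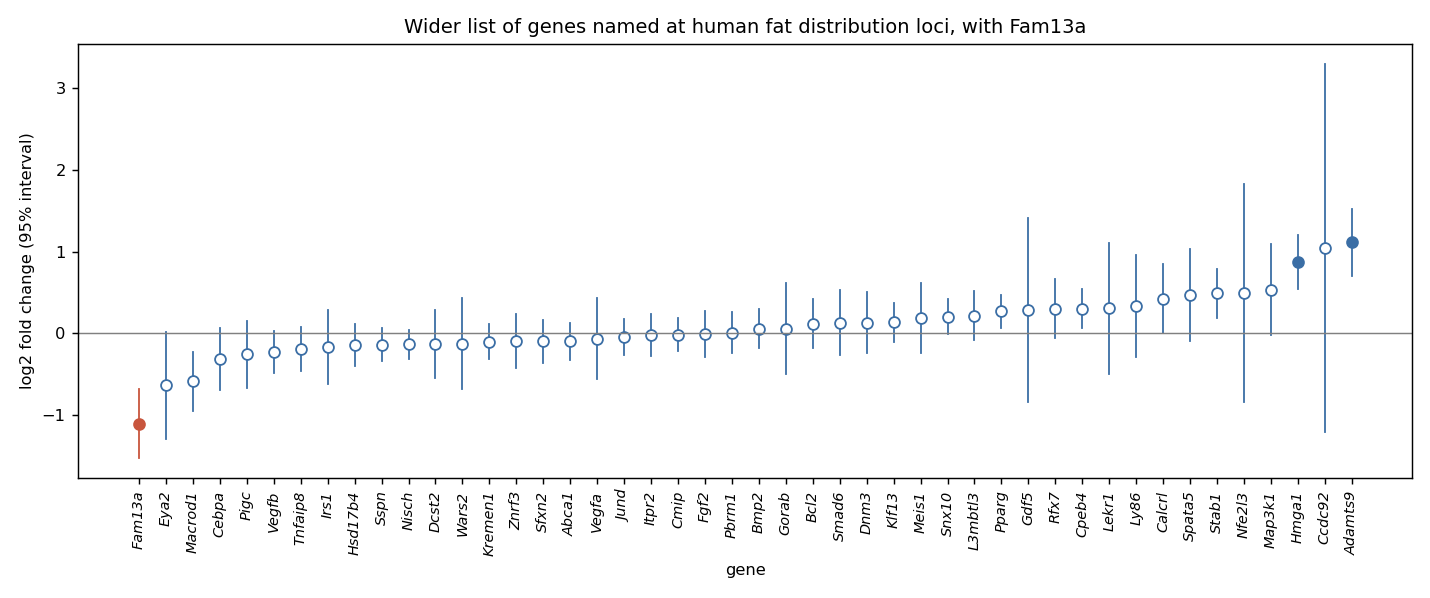
Points are log2 fold changes of Adipoq-F2-KO over FFA2 fl/fl with 95% intervals for Fam13a (red) and the 45 tested genes of the wider list (blue), ordered by value, and filled points were called by edgeR. Fam13a at -1.11 is the lowest, Eya2 at -0.63 and Macrod1 at -0.59 follow, and Hmga1 at 0.87 and Adamts9 at 1.12 are the called genes at the other end.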

How the data were processed

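Adipocyte gene counts were used from 3 floxed controls and 4 knockouts, grouped by the sample labels. Paired reads of stranded poly(A) libraries were trimmed (Trimmomatic), aligned (STAR) and counted per gene (featureCounts) by the authors. The deposited values are these counts per gene, whole and not normalized. The processing notes name GRCm38/mm10, but the gene positions in the table differ from that build, so gene coordinates are the table's and promoter coordinates are GRCm38.p6. Tool versions and counting options are not given in the sources used here. Of counts from 1 to 49, 85.5% to 88.8% were even, so both mates appear to be counted. With strand and overlap options unknown, counts of antisense or overlapping genes are uncertain. 1 row without a symbol, ENSMUSG00000119584, took 0.619% to 6.76% of counts. All pairs of libraries within a genotype differed by more than counting noise (22.7 to 92.6 times the expected chi-square), so none was treated as a library deposited more than once.

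Genes were filtered with filterByExpr and tested with edgeR 4.0.16 (R 4.3.3; TMM, glmQLFit, glmQLFTest, two-sided, genotype alone), and p-values were adjusted by Benjamini-Hochberg over 17039 genes. edgeR's common biological coefficient of variation came to 0.258. SE is the log2 fold change over the root of F. CPM are TMM-normalized, and RPKM divides them by exon length in kb. The scripts were tested on simulated data. DESeq2 1.42.0 and limma 3.58.1 voom served as alternatives, besides normalization, filter, replicate block and omission of each library. Scaling to 15 adipocyte markers was added after seeing the data.

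By the rule, named are the members, Ffar2, the nearest tested gene on each side, a list's called genes or else its 2 with the highest mean CPM, and the 5 genes most like Fam13a. Other genes named (Igf1r, Nrp2, Macrod1, Stab1, Eya2, Klf9, Cebpa, Abca1, Pparg, Adipoq, Fabp4 and the antisense genes) were added after their values were seen. Members and lists were chosen with earlier results of these data known. Of the members, 5 matched RefSeq promoters, and Tbx15, Klf14 and Rspo3 were not matched. P-values and 95% intervals of log2 fold changes rest on the spread between these mice, and the limit that a count of 0 allows covers counting error only.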

Additional observations from a re-analysis of the deposited data

Results flagged for a closer look

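Of 25 groups of 4 Adipoq-F2-KO libraries looked at, 3 held a library set far apart from the other 3 by Dixon's criterion, and chance flags about 1 in 20 such groups. Lyplal1 stood at 19.5 CPM in Adipoq-F2-KO library 3, with 16.0 CPM as the next value, and its gap was 0.851 of the range. Adamts9 stood at 169 CPM in library 4, with a gap of 0.889 of the range above 105 CPM in library 1. The summed markers of epididymal epithelium stood at 17.5 CPM in library 3, with 0 to 2.14 CPM in the other knockouts and a gap of 0.878 of the range. Fam13a was at 311 CPM in that library, its highest knockout value, and none of these values was traced to a cause.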

How the results depend on the processing

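The fall of Fam13a kept its sign and its call under the 9 settings that kept all libraries (log2 fold change -1.15 to -0.92, adjusted p up to 0.038), RLE normalization, total counts, no filter, DESeq2, voom and the adipocyte scaling among them. Leaving out 1 library gave -1.26 to -0.97 (adjusted p 0.0319 to 0.201), with 3 of 7 calls kept. Members called were then 0 to 1, and genes called in the wider list 0 to 2. Without a filter beyond 1 count the wider list had 5 calls (4 higher, 1 lower), and with DESeq2 it had 4 (3 higher, 1 lower). Over all genes, 173 calls became 1403 without that filter, 869 with DESeq2 and 337 with adipocyte scaling (328 higher and 9 lower, against 136 and 37), and 1 to 178 without 1 library. The low end was reached without FFA2 fl/fl library 1 (1), library 3 (5) or library 2 (41), and without Adipoq-F2-KO library 2 (11) or 3 (20). Those fits have fewer samples, and apart from that the cause was not tested.

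Adipocyte scaling moved the median of all genes to 0.22 and turned Cobll1 to 0.17 and Lyplal1 to 0.066, both below that median. Cobll1 also reached 0.024 without FFA2 fl/fl library 3 (range -0.14 to 0.024), and Klf14 turned to 0.10 and 0.022 without FFA2 fl/fl library 1 and Adipoq-F2-KO library 4 (range -0.69 to 0.10). None of these was called under any setting. Tigd2 lost its call with total counts (adjusted p = 0.0567), voom (0.0523) and the replicate block (0.0868).

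Replicate numbers did not pair the samples, since same-numbered libraries had correlations of deviations of 0.03, -0.02 and -0.02. With the replicate block Fam13a was at -0.998 (adjusted p = 0.0372), Klf14 turned to 0.030 and 224 genes were called. Tbx15 and Rspo3 had the fewest counts of the members, 0 to 6 and 4 to 44 per library.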
